A study of Mus musculus with 2 samples.

Results

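AP-1 is a family of paired transcription factors whose subunits join through a leucine zipper and bind DNA with the basic stretch beside it. The 10 genes described here encode subunits of the FOS group (Fos, Fosb, Fosl1, Fosl2) and the JUN group (Jun, Junb, Jund) together with the related Atf3, Jdp2 and Batf3, and they were taken by gene symbol from the 22206 gene probe sets of the array. Each had 1 probe set. JUN proteins pair with each other or with FOS proteins and mostly activate transcription at the site called the TRE. ATF3 and JDP2 often act as repressors and also bind the related CRE, and BATF3 pairs with JUN proteins but lacks an activation domain. Fos, Jun and several others are known as genes that respond fast to growth factors, stress and Ca2+ entry.

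RNA was measured on 1 array of F2 cells transfected with hBACCS2 and exposed to blue light, and on 1 array of F2 cells transfected with hBACCS2 and kept without blue light. F2 is a mouse vascular endothelial line that came from a tumour induced by UV irradiation, of mixed BALB/c and C57BL/6 background. hBACCS2 joins a plant light sensor to STIM1, so that 470 nm light opens the Ca2+ channel ORAI1. Here it was driven by the CAG promoter and carried on a transiently transfected plasmid that reached only part of the cells. Light was given for 2 min, followed by 18 min without it, over 4 hours at about 0.4 mW/mm2. The labels of both samples name hBACCS2, while the description of the whole series says of a negative control that it lacked hBACCS2. The study's own account of the arrays also describes both as hBACCS2-transfected cells, and the sample labels were followed. Both arrays held cells with hBACCS2, so on the arrays an effect of light alone and one of light through hBACCS2 cannot be told apart. The study also ran quantitative PCR on selected genes in cells with and without hBACCS2. It reported that light raised genes picked from the arrays in hBACCS2-positive cells but not in hBACCS2-negative cells, with the rise of Atf4 not significant. Its listed primers were for Atf3, Atf4 and Adm, besides a reference gene and E-selectin, which did not rise.

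With 1 array per condition no spread between replicates exists, and no p-value is given. Calls rest on the ratio of blue light over no blue light: above 2 counts as higher and below 0.5 as lower, provided that both signals were over 24, a level close to the median of the negative control probes (26.5 with blue light and 26.2 without). To show how far probe sets of like brightness scattered, each log2 ratio was also set beside those of the 500 gene probe sets nearest in mean log2 signal. Signals of different probe sets cannot be compared, so subunits are ordered by their ratios and not by their signals. Endothelial identity was checked with 14 marker probe sets. Of these 13 were over the signal cutoff, none called, with a median log2 ratio of -0.23, and Cldn5, a tight junction gene, had a signal of 5.03 with blue light and 4.50 without. The 9 leukocyte and epithelial marker probe sets, with Ptprc and Epcam among them, were all under the cutoff. Of 5 smooth muscle and fibroblast marker probe sets 3 were over it, none above a signal of 92.1, and none was called. Over all 11695 gene probe sets past the signal cutoff the log2 ratio had a median of -0.01, with the 5th percentile at -0.71 and the 95th at 0.67.

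All 10 AP-1 subunit genes had a higher signal with blue light than without it. Atf3 and Jdp2 were called higher and none was called lower, while 6 of the 8 subunits over the signal cutoff stayed within the fold cutoff. In bulk RNA of a culture in which only some cells carry the plasmid, a change in all cells and a larger one in some cannot be told apart. For comparison, 0.958% of all gene probe sets over the cutoff were called higher and 1.37% were called lower. A log2 ratio above 0 was found in 48.5% of the probe sets over the cutoff and in 50.8% of all gene probe sets. The 8 subunits had a median log2 ratio of 0.57, a ratio of 1.48. The log2 ratios of all 10 lay between 0.10 in Fosb and 1.34 in Atf3. Their order was Atf3, Jdp2, Batf3, Fosl2, Jund, Junb, Fos, Jun, Fosl1 and Fosb, and which neighbours in it truly differ cannot be told with 1 array per condition.

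**Figure D1:**
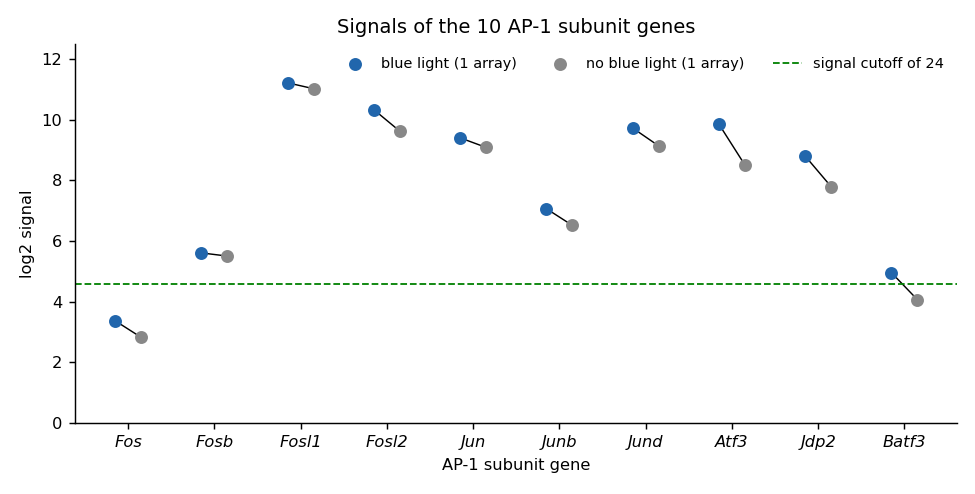
Log2 signal (y axis) of the 10 AP-1 subunit genes (x axis), with the blue light array as a blue point left of the array without blue light in grey; each point is 1 array, and the dashed line is the signal cutoff of 24. The blue point is the higher one in all 10 genes, Fos lies under the line on both arrays, and Batf3 crosses it.

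Atf3, which encodes a stress-induced factor that often represses its targets, had a signal of 924 with blue light and 364 without it. This ratio of 2.54 ranked 13 from the highest among the 11695 probe sets over the signal cutoff. Of the 500 probe sets nearest in signal, 1 had a log2 ratio as high. Jdp2, a repressor that pairs with JUN proteins, had a signal of 446 with blue light and 222 without. Its ratio of 2.01 was just past the fold cutoff, and 4 of the 500 nearest probe sets had a log2 ratio as high or higher. With 24 added to both signals, its log2 ratio was 0.93 and it was no longer called, so that Atf3 alone was. Fosl2, with a ratio of 1.63, was the subunit just outside the cutoff among those over the signal cutoff.

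Batf3 is best known for its part in the development of cross-presenting dendritic cells. It had a signal of 31.0 with blue light and 16.7 without, so it passed the signal cutoff on the blue light array alone. Its log2 ratio of 0.89 lay at percentile 94.8 of the nearest 500 probe sets, whose own 95th percentile was 0.89. Both signals were close to those of the negative controls, and with 24 added to both the log2 ratio was 0.43.

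In the JUN group, Jund had a signal of 847 with blue light and 564 without, Junb of 134 with blue light and 91.4 without, and Jun of 676 with blue light and 544 without. JUND is a subunit that many resting cells make, JUNB a weaker activator that can restrain JUN, and JUN the founding member of the group. Their log2 ratios were 0.59, 0.55 and 0.31, and all were within the fold cutoff. Among the nearest probe sets Jund lay at percentile 93.4, Junb at 89.6 and Jun at 81.4.

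The FOS group spread more widely, with log2 ratios between 0.10 and 0.71. Fosl2, which encodes FRA-2, had a signal of 1286 with blue light and 788 without, a log2 ratio of 0.71 at percentile 97.4 of its nearest probe sets. Fosl1, which encodes FRA-1, had a signal of 2382 with blue light and 2082 without. Its log2 ratio of 0.19 lay at percentile 75.0. Fosb had signals of 48.7 with blue light and 45.3 without, and its log2 ratio of 0.10 at percentile 55.4 was close to the middle of its nearest probe sets. FRA-1 and FRA-2 lack the strong activation domain of FOS and FOSB.

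Fos itself had a signal of 10.3 with blue light and 7.06 without, under the cutoff on both arrays. Its log2 ratio of 0.54 was reached or passed by 58 of the 500 nearest probe sets and was 0.14 with 24 added to both signals. A difference in Fos was not detectable at this signal, and the arrays hold no time point other than the end of the light series. Across the 10 subunits, Atf3, Jdp2 and Fosl2 lay above the 95th percentile of their nearest probe sets, Batf3 and Jund lay between the 90th and the 95th, and the other 5 lay below the 90th.

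**Figure D2:**
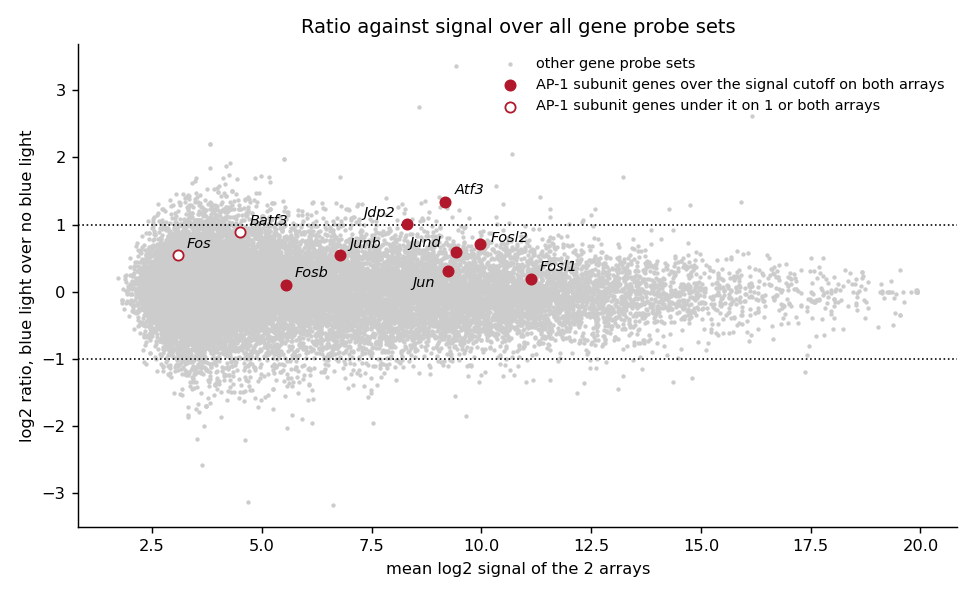
Log2 ratio of blue light over no blue light (y axis) against the mean log2 signal of both arrays (x axis) for every gene probe set (grey) and the AP-1 subunit genes (red, open where the signal was under the cutoff on 1 or both arrays); dotted lines mark ratios of 2 and 0.5. Atf3 and Jdp2 are the red points above the upper line, and no red point lies below 0.

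The promoter windows of the subunits were then read for sites of the factors themselves and of others that are known to switch AP-1 genes on. RefSeq windows of GRCm38.p6, each from 250 bases before a transcription start to 50 bases after it, were at hand for 9 of the 10 genes (11 windows, of which 3 belong to Jdp2), all but Fosl1. Both strands were searched. The TRE was searched as TGANTCA, with any base allowed in the middle. This pattern, the full CRE (TGACGTCA), the CArG box to which SRF binds, and the heat shock element (GAANNTTCNNGAA) had no match in the 11 windows. Of all 32851 windows, 7.81%, 1.79%, 1.63% and 0.603% held them. The lack of a match says only that these letters are not in the windows of these genes. The CRE core (TGACG), which also lies inside every full CRE, was found in Fos, Fosb, Junb, Atf3 and Jdp2, 5 of the 9 genes. Counted by window it stood in 20.8% of all. Over probe sets past the signal cutoff, with a match in any window, it stood in 35.3%. The 9 genes were also counted by any window, but include Fos and Batf3, which were not past that cutoff on both arrays.

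The element TGATGNAA, known as the C/EBP-ATF element because pairs of ATF4 and C/EBP factors bind it, had a match in 2 of the 9 genes, and these were Atf3 and Jdp2, the subunits called higher. It was found in 3.97% of all windows and, for probe sets past the signal cutoff, which leave out Fos and Batf3, in any window of 2.93%. The sites are shown because no window of another subunit held one. They are read on the strand that spells the element, with the element in capitals. The Atf3 site lies 103 to 110 bases before the start. The Jdp2 site lies 26 to 33 bases before the transcription start to which its window belongs. That start is inside the annotated span of the gene.
Atf3 (chr1:191183425-191183454, plus strand): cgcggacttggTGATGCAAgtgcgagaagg
Jdp2 (chr12:85599372-85599401, plus strand): atagccggggcTGATGCAAcccgtcccgcc

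The 250 bases before the Atf3 start, on the minus strand of chr1:191183334-191183583, are given whole because Atf3 had the highest ratio of the family; capitals mark the C/EBP-ATF element and, next to the start, the CRE core, both read here from the opposite strand.
Atf3: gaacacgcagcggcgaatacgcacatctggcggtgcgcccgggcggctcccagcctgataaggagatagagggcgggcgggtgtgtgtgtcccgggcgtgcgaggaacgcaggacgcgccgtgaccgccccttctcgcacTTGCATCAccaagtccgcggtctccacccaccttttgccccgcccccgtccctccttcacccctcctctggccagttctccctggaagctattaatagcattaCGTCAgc

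Sites of the CRE core in the Fos window are shown beside that of Jdp2, with the core in capitals, since Fos held more matches of it than any other subunit while its signal was under the cutoff.
Fos (chr12:85473749-85473777, plus strand): ggggcgtagagtTGACGacagagcgcccg
Fos (chr12:85473812-85473840, plus strand): agttccgcccagTGACGtaggaagtccat
Jdp2 (chr12:85599290-85599318, plus strand): tccgtccccctcTGACGtgtggagctggc

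Over the whole array, 8530 probe sets passed the signal cutoff and had a window. The C/EBP-ATF element stood in a window of 7 of the 85 that were called higher (8.24%), Atf3 and Jdp2 included, and in 2 of the 111 called lower (1.80%). Without Atf3 and Jdp2 it stood in 5 of 83 (6.02%), namely Chac1, Gm3414, Herpud1, Polk and Sry, which were named after their values were seen. The CRE core stood in 32.9% of those called higher, in 34.2% of those called lower and in 35.3% of all. These shares are a description, genes with several windows have more chances to hold a match, and a match is not evidence of binding.

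Several AP-1 genes lie side by side. Fos, Jdp2 and Batf follow each other on chromosome 12 with no other protein-coding gene between them in the RefSeq order, and Batf3 and Atf3 on chromosome 1 are separated by Fam71a alone. Batf, a further JUN partner that is not among the 10 genes, had a signal of 31.0 with blue light and 18.4 without, a log2 ratio of 0.75. The 3 genes of the chromosome 12 group had log2 ratios of 0.54, 1.01 and 0.75. The 8 probe sets of the 4 genes before and after them lay between -0.36 and 0.30. On chromosome 1, Fam71a had a signal of 24.1 with blue light and 13.5 without, a log2 ratio of 0.84. It and the 8 flanking probe sets lay between -0.61 and 0.84. Only Jdp2 and Atf3 of the family genes in these places were over the signal cutoff on both arrays.

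**Figure D3:**
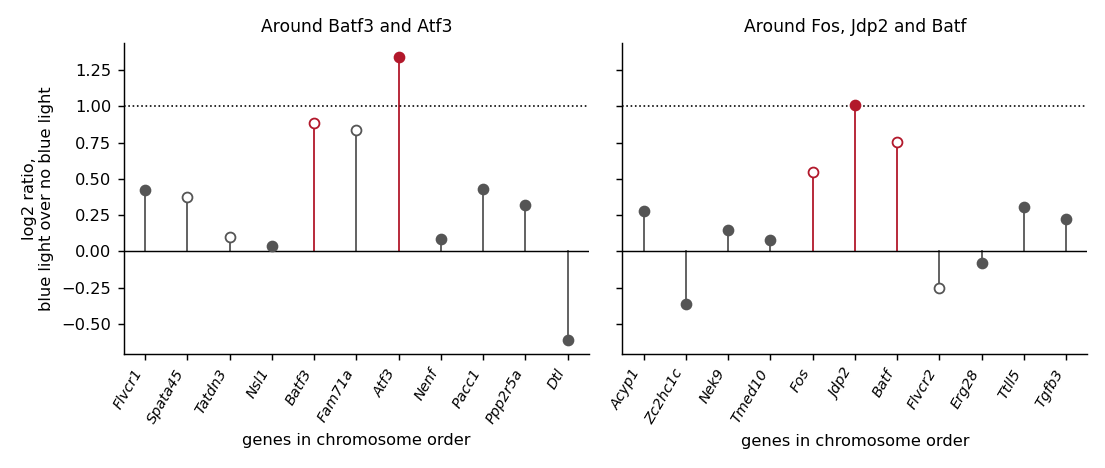
Log2 ratio of blue light over no blue light (y axis) of protein-coding genes in chromosome order (x axis) around Batf3 and Atf3 (left) and around Fos, Jdp2 and Batf (right); family genes are red, others grey, open points were under the signal cutoff on 1 or both arrays, and the dotted line marks a ratio of 2. On the right the family genes stand above all their neighbours, and on the left Fam71a stands with them.

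AP-1 subunits belong to the larger class of bZIP factors, so the other bZIP genes form the closest comparison. Of 37 probe sets for 36 such genes, 27 were over the signal cutoff. Their median log2 ratio was 0.10, with 17 above 0 and 10 below. Atf4, the main factor of the integrated stress response, was the only one called higher, with a signal of 30405 with blue light and 12942 without, and none was called lower. In the study's quantitative PCR the rise of Atf4 was not significant. Mafk, a small MAF protein that pairs with NRF2 or BACH1, was just within the fold cutoff at a log2 ratio of 0.94. Batf2 had a log2 ratio of 0.73, from signals near those of the negative controls, 46.7 with blue light and 28.2 without. Among the C/EBP group all 5 probe sets over the cutoff, which stand for 4 genes, were above 0, between 0.08 and 0.53, with Cebpg highest. Ddit3 was measured by probe sets at 0.39 and 0.08. The MAF, CNC and BACH group was mixed, with Nfe2l2, which encodes NRF2, at -0.82 and Bach2 at -0.65. Lowest of all was the clock output gene Dbp, at -0.98, with a signal of 257 with blue light and 507 without. Thus 8 of the 8 AP-1 probe sets and 17 of the 27 other bZIP probe sets over the cutoff were above 0; with 1 array per condition this difference was not tested.

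**Figure D4:**
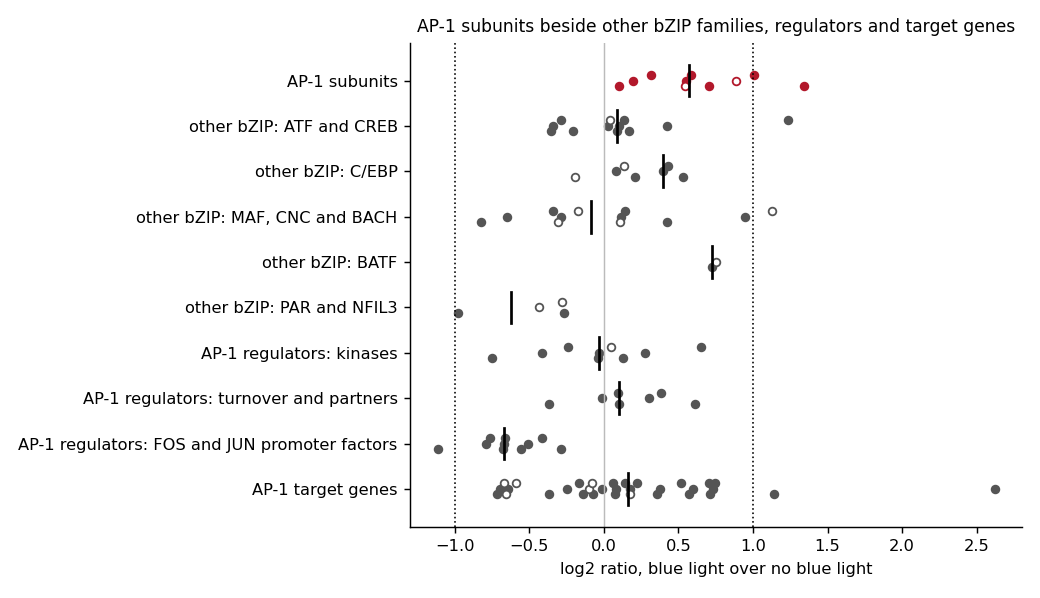
Log2 ratio of blue light over no blue light (x axis) for each probe set of the AP-1 subunits (red) and of the other gene lists (grey), with the median of probe sets over the signal cutoff as a black bar, open points under the cutoff, and dotted lines at ratios of 2 and 0.5. The AP-1 median lies at 0.57, that of the FOS and JUN promoter factors at -0.67.

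Genes that act on AP-1 formed 3 lists, of which the factors that bind the Fos and Jun promoters stood lowest. This list holds SRF, its ELK and MRTF partners, MEF2 proteins and CREB1. All 10 of its probe sets were over the signal cutoff, and all 10 had a log2 ratio below 0, as did 51.1% of all probe sets over the cutoff. Their median was -0.67, and the values lay between -1.11 and -0.29. Mrtfa, an SRF coactivator that answers to actin, was called lower, with a signal of 130 with blue light and 281 without, and the other 9 were within the fold cutoff. With 24 added to both signals Mrtfa was no longer called, and with a fold cutoff of 1.5 it and 5 others were lower, beside 8.47% of all probe sets over the cutoff. Elk1, which carries the signal of ERK kinases to SRF sites, had a signal of 82.2 with blue light and 142 without, and Mef2a of 9627 with blue light and 16376 without. Creb1, which binds the CRE, was the least low, with a signal of 245 with blue light and 300 without.

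Of 9 kinase genes found, 8 were over the cutoff and none was called, with a median log2 ratio of -0.04. Mapk9 and Mapk8 encode the JUN N-terminal kinases JNK2 and JNK1. Mapk9 had a signal of 997 with blue light and 635 without, a log2 ratio of 0.65, and Mapk8 of 33.8 with blue light and 45.0 without, a log2 ratio of -0.41. Rps6ka3, a kinase downstream of ERK, was lowest at -0.75. Of the 7 genes of JUN turnover and partners none was called. Det1 and Cop1, parts of a ubiquitin ligase that degrades JUN, had log2 ratios of 0.61 and 0.38, and Itch, another ligase for JUN, had -0.37.

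Genes known as AP-1 targets were mixed. Of 32 found, 26 were over the cutoff, 2 were called higher and none lower, and 17 were above 0. Their median log2 ratio was 0.16. Those called higher were Hmox1, which encodes the heme-degrading enzyme heme oxygenase 1, with a signal of 182382 with blue light and 29651 without, and Adm, the gene of the vasodilator adrenomedullin, with 8541 with blue light and 3881 without. Ptgs2, the inducible cyclooxygenase gene, followed at 0.74. Lowest were F3, the tissue factor gene, at -0.72, and the growth factor genes Hbegf and Ereg at -0.70 and -0.64. The signal of F3 was near those of the negative controls, at 30.4 with blue light and 50.1 without. The matrix protease gene Mmp3, a classical AP-1 target, had a signal of 999 with blue light and 904 without. Most of these genes also answer to other factors, so the list does not measure AP-1 activity.

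The ratios of the subunits were little changed by the scaling of the arrays. Under median, quantile and loess scaling the log2 ratio of Atf3 was between 1.35 and 1.38 and that of Jdp2 between 1.02 and 1.04, and both stayed called higher. The value that moved most was that of Batf3, through the added signal of 24. With a fold cutoff of 1.5 in place of 2, Fosl2 and Jund were also called higher, which makes 4 of 8 beside 7.55% of all probe sets over the cutoff. Jund passed that cutoff narrowly, with a ratio of 1.502.

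**Figure D5:**
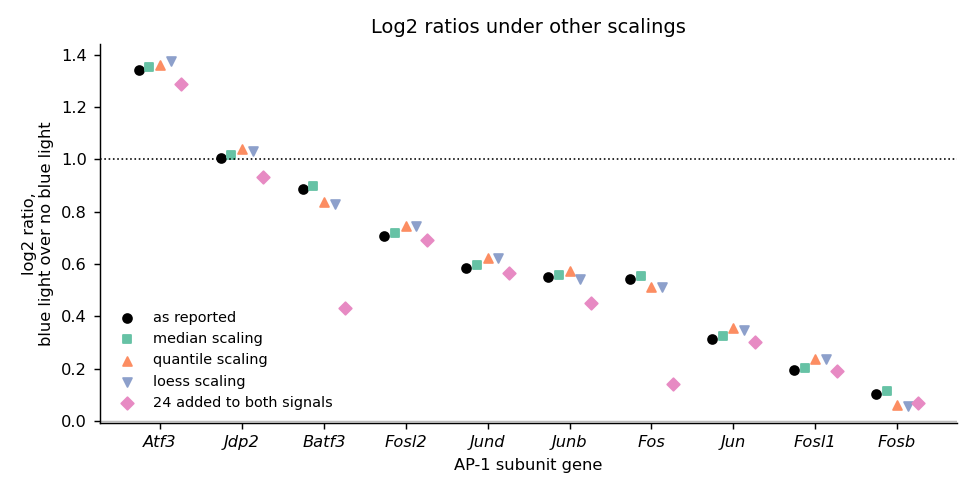
Log2 ratio of blue light over no blue light (y axis) of each AP-1 subunit gene (x axis, from the highest to the lowest as reported) as deposited, under 3 other scalings (median, quantile, loess), and after adding 24 to each signal; the dotted line marks a ratio of 2. All values lie above 0, and Jdp2 is under the line only with 24 added.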

How the data were processed

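Labelled cDNA of 1 RNA sample per condition was hybridised to Clariom S mouse arrays, and the authors normalized the data with the Microarray Data Analysis Tool and deposited log2 signals. The sources used here do not say how signals were normalized or whether background was subtracted. The base of 2 and the direction of the ratio were checked: on 238 probe sets ratios tabulated with the study equalled those computed here within 0.01%.

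Of the rows, 6640 controls were left out. Symbols came from the platform annotation, which leaves 2634 gene probe sets unnamed here, and promoter windows and gene order from RefSeq (GRCm38.p6). The signal cutoff of 24 and the ratio cutoffs of 2 and 0.5 are those of the study's methods, which do not say whether both signals had to pass 24. Here both had to, and 112 probe sets were called higher and 160 lower. The study reported fewer genes in each direction, so its lists are not fully reproduced. All 10 members were named; of other lists, genes past the cutoffs and the 3 highest and 3 lowest were eligible, while Mmp3, Fam71a and the 5 other genes with the C/EBP-ATF element were picked once their values were known. Members and lists were chosen with earlier results of these data known. Alternatives were other signal cutoffs, median, quantile and loess (span 0.4) scaling, 24 added to both signals and a fold cutoff of 1.5. The calling code was checked on simulated signals with known ratios, which tests the code and lends these single arrays no support. Python 3.11.15 with pandas 2.3.3 and statsmodels 0.14.6 was used.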

Additional observations from a re-analysis of the deposited data

How the results depend on the processing

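Among the 8 alternatives only quantile and loess scaling could turn the sign of a subunit's log2 ratio: the other signal cutoffs and the fold cutoff leave it as it is, adding 24 cannot turn it, and median scaling raises all of them alike. All 20 values under these 2 scalings were above 0, with the same calls. Jdp2 lost its call with 24 added, leaving 1 subunit called higher, and Fosl2 and Jund gained theirs at a fold cutoff of 1.5, making 4. At that cutoff, which 7.55% of all measured probe sets passed as higher and 8.47% as lower, 3 of 27 other bZIP probe sets were higher and 3 lower, 6 of 10 FOS and JUN promoter factors were lower, and 7 of 26 AP-1 target genes were higher and 3 lower. Of the other bZIP probe sets 2 were higher with no signal cutoff (2 of 37, beside 407 of 22206 gene probe sets) or with it on 1 array only (beside 246 of 13060). With 24 added, 0 of 10 promoter factors were lower. Medians were recomputed only for the AP-1 subunits, other bZIP genes, FOS and JUN promoter factors and AP-1 target genes. These medians moved by less than 0.1 under every scaling and signal cutoff tried. No paired analysis was possible because each condition has 1 array; for the same reason no replicate could be left out. Signals near those of the negative controls limit Fos, Batf3 and Fosb.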
